A study of Xenopus laevis with 16 samples.

Results

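The untreated animal cap at stage 12 was described from 3 RNA-seq libraries of Xenopus laevis, the untreated caps numbered 1, 2 and 3, out of 16 libraries in the series. The members were the 3 RPKM columns of these libraries in the deposited table that lists every transcript, and no measured value was used to choose them. RPKM is the number of reads of a transcript per kilobase of its length and scaled to the mapped reads of the library. Caps of embryos of the strain given as Nasco were explanted at stage 9 and collected at stage 12, and the table's header calls the controls uninjected. In the deposited tables library 1 stands beside dissociated, BMP4 and Chordin caps, library 2 beside dissociated caps, and library 3 beside dissociated, Wnt8 and Cerberus caps. The fourth untreated library and the 3 libraries of dissociated caps were used below only where named. The same header calls a control and its dissociated caps an independent experiment, but the labels give neither the number of caps in a library nor its clutch. The p-values below therefore measure the spread between these libraries, part of which may be technical.

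The animal cap is the roof of the blastula, ectoderm that can still form many tissues. Left alone it becomes epidermis under the BMP signals of its own cells, and at the late gastrula stage its inner layer begins to set aside multiciliated cells, ionocytes and other cells of the larval skin. Removal of BMP signals turns the same tissue neural. Xenopus laevis is an allotetraploid that arose by hybridization, so that many genes are kept as a pair of homeologs, the L copy on the long and the S copy on the short chromosome of a pair. In the files, IDs that end in .L and .S mark these copies, and models with a running number stand outside this scheme, as do IDs that end in a dot and the digit 1, called dot-1 IDs below.

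The libraries held 28721807, 38530783 and 46522450 mapped reads in libraries 1, 2 and 3, as recovered from the steps between RPKM values. Of 43653 rows, 8943 had no read in any of the 3 libraries and 26676 had reads in all of them. A mean of at least 1 RPKM was reached by 15933 transcripts, of at least 20 RPKM by 3844 and of at least 100 RPKM by 804. Human symbols, assigned by the authors to 32846 rows, name the numbered models below, with the model number in brackets.

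Library 1 stood apart from the other two. Log2(RPKM + 1) of 15933 transcripts correlated at 0.943 between libraries 2 and 3, at 0.899 between 1 and 3 and at 0.844 between 1 and 2. These points share length scaling and gene models, so the coefficients are descriptions. In RPKM + 1, 30.2% of transcripts differed at least 2-fold between libraries 1 and 2, against 16.6% between 1 and 3 and 9.61% between 2 and 3.

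The libraries carried the markers of epidermal ectoderm and little of mesoderm, blood or muscle. Markers of superficial epidermis, among them keratins and grainyhead factors, summed to 1871, 6164 and 4165 RPKM in libraries 1, 2 and 3, with 23 of 26 transcripts at a mean of at least 1 RPKM. Most of the difference came from krt12, at 63.1, 2797 and 1284 RPKM, and krt8, at 464, 1589 and 1237 RPKM. Not lowest in library 1 were grhl3 (476, 453 and 521 RPKM), tfap2a (214, 173 and 153 RPKM), dlx5 (227, 221 and 212 RPKM) and krt18 (228, 290 and 222 RPKM). Mesoderm markers summed to between 3.07 and 9.51 RPKM, blood markers to between 0.425 and 1.70 RPKM, and muscle markers to between 1.27 and 1.68 RPKM. Endoderm markers summed to 11.3, 18.9 and 54.0 RPKM, of which a2m alone gave 6.898, 8.524 and 40.49 RPKM. Of the other endoderm markers, gata4 was also highest in library 3 (0.468, 5.48 and 9.54 RPKM). The marker sox17a was highest in library 1, and gata6 and cer1 were highest in library 2. Organizer markers summed to 19.6, 35.8 and 17.9 RPKM, of which the homeobox gene not alone gave 18.0, 33.0 and 16.7 RPKM.

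Markers of specialised skin cells and of neural plate differed widely between the libraries. The 23 transcripts of multiciliated cell markers summed to 28.0 RPKM in library 1, 893 in library 2 and 450 in library 3. The sum of neural markers ran the other way, with 1020 RPKM in library 1, 242 in library 2 and 311 in library 3, and 17 of 26 transcripts at a mean of at least 1 RPKM. In library 1 most of this sum came from 2 genes, sox3 and gmnn. In libraries 1, 2 and 3 sox3 read 349, 62.4 and 88.9 RPKM and gmnn 389, 60.8 and 61.0 RPKM. By contrast sox2 was highest in library 2 (15.4, 35.8 and 15.3 RPKM) and tubb2b in library 3 (21.6, 15.5 and 49.1 RPKM). Both copies of the neural marker foxd4l1.1 were listed at 0 in all 3 libraries. Mucus or goblet cell markers summed to 3.73, 93.7 and 18.8 RPKM, and ionocyte markers to 334, 275 and 707 RPKM. Of the ionocyte sum foxi1 alone gave 303, 133 and 545 RPKM, while ubp1, at 4.63, 71.0 and 100.4 RPKM, and ca12, at 11.8, 42.6 and 19.6 RPKM, were lowest in library 1. The basal epidermis marker tp63 summed to 0.0261, 3.97 and 0.630 RPKM, and the small secretory cell markers stayed between 0.814 and 3.64 RPKM. In bulk RNA, fewer cells of a type and less RNA per cell cannot be told apart.

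**Figure D1:**
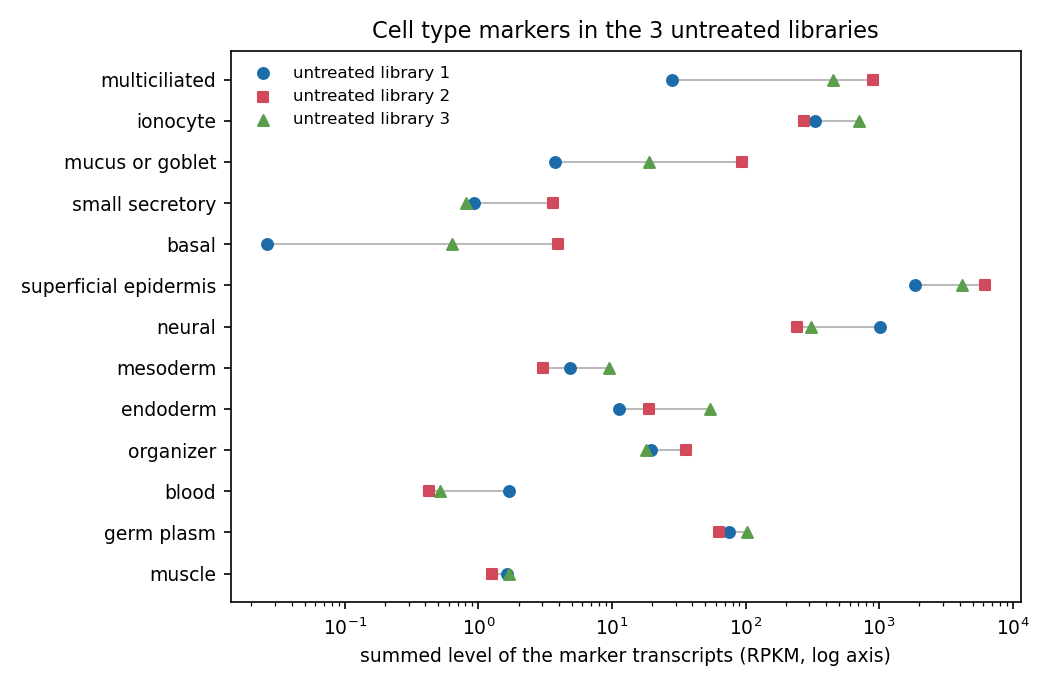
Summed RPKM of marker transcripts per cell type in the 3 untreated libraries, on a log axis, with 1 point per library and a grey line over their range. Multiciliated markers stood at 28.0 RPKM in library 1 against 893 in library 2, while neural markers stood at 1020 RPKM in library 1 against 242 in library 2.

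The most abundant transcripts of the cap came from translation, chromatin, RNA binding and the mitochondrial genome. The highest was EEF1A1 (Xelaev18004064m), the elongation factor that brings aminoacyl-tRNA to the ribosome, at 5913, 12715 and 7673 RPKM in libraries 1, 2 and 3. It ranked first in every library and held 1.85% ± 0.680 of the total RPKM (SD, n = 3). Next came HMGB2 (Xelaev18005411m), a chromatin protein that bends DNA, at 4298, 6031 and 4309 RPKM. EEF1A1 (Xelaev18029462m) and EEF1A1 (Xelaev18002122m) also stood among the 20 highest, and the 6 models with that symbol summed to 10534, 18948 and 12910 RPKM.

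RNA-binding and chromatin proteins filled most of the other places. Both copies of cirbp, the cold-inducible RNA-binding protein, ranked among the 20, cirbp.L at 1854, 3535 and 2527 RPKM and cirbp.S at 1621, 2738 and 2087 RPKM. The splicing factor srsf2.L was the steadiest of the 20 transcripts, at 1910, 2174 and 2036 RPKM, a range of 0.19 on the log2(RPKM + 1) scale. The splicing regulator hnrnpa1.L read 1416, 3157 and 1712 RPKM, and YBX1 (Xelaev18037541m), which packages stored mRNA, read 1361, 2658 and 1763 RPKM. Both were lowest in library 1 and highest in library 2.

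The nucleosome-binding protein HMGN2 was present from both copies, at 1785, 2643 and 2362 RPKM for hmgn2.L and 1439, 2513 and 1909 RPKM for hmgn2.S. The histone chaperone transcript anp32c.S read 1995, 3093 and 2401 RPKM, and PRMT1 (Xelaev18037790m), an arginine methyltransferase that acts on histones and RNA-binding proteins, read 1764, 2488 and 1730 RPKM. Library 2 was highest for all 3 genes. SLC25A5 (MGC75700.L), the exchanger of ADP and ATP across the inner mitochondrial membrane, read 1220, 1875 and 1759 RPKM.

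Epithelial and extracellular matrix genes held 3 places among the 20. The type I keratin krt.S read 1712, 3237 and 2571 RPKM. MUC5B (Xelaev18024376m), a gel-forming mucin, read 1051, 2034 and 1803 RPKM. HAS1 (Xelaev18019732m), a hyaluronan synthase, read 736, 2807 and 1905 RPKM and ranked 66th in library 1, 8th in library 2 and 15th in library 3. All 3 were lowest in library 1 and highest in library 2, and HAS1 had the widest range of the 20, at 1.93 on the log2 scale.

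Transcripts of the mitochondrial genome showed the opposite order. ND1 (Xelaev18001106m), a subunit of complex I, read 4799, 1923 and 2961 RPKM in libraries 1, 2 and 3, and ATP6 (Xelaev18004681m), a subunit of ATP synthase, read 2509, 768 and 1708 RPKM. The 4 transcripts described as mitochondrial held 2.30% of total RPKM in library 1, 0.843% in library 2 and 1.61% in library 3. All 4 were highest in library 1 and lowest in library 2, the most common order over all transcripts (5755 of 15933, 36.1%). This group was formed after the values were seen. Xelaev18001105m, a model with no symbol or description, read 3445, 1388 and 2439 RPKM in the same order.

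**Figure D2:**
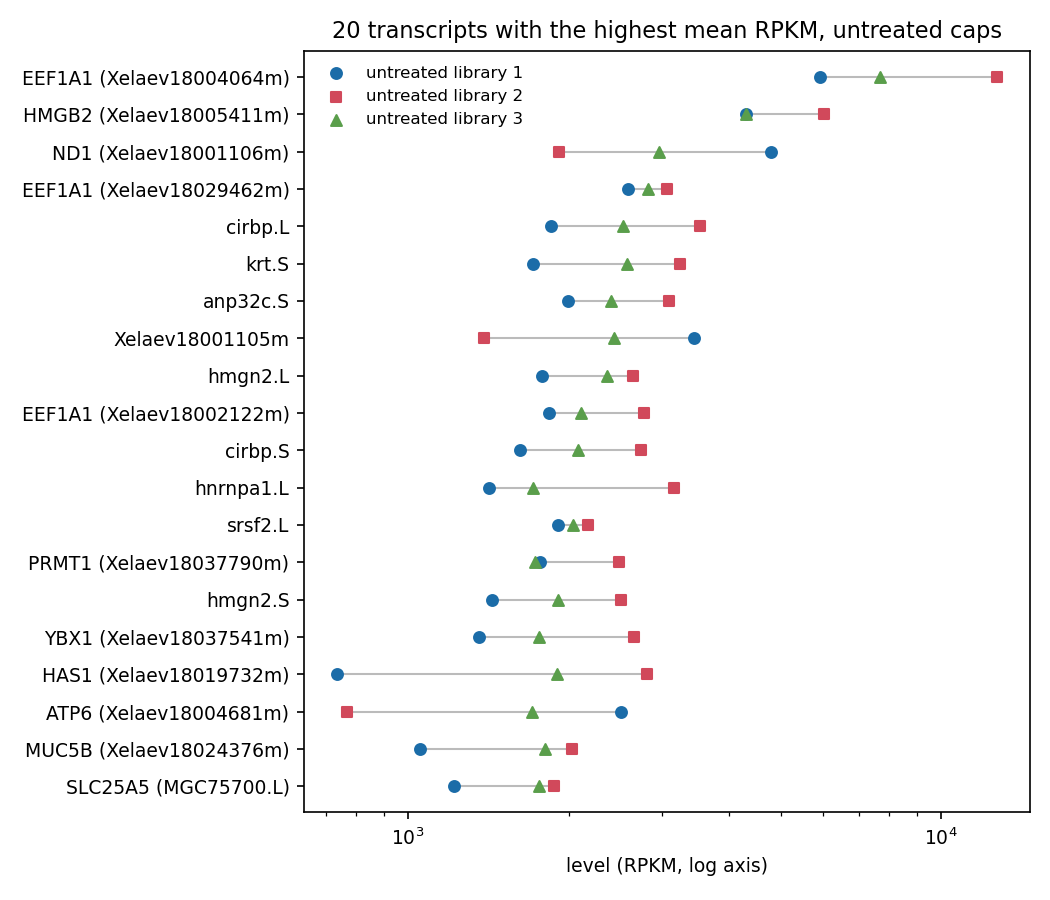
RPKM of the 20 transcripts with the highest mean in the 3 untreated libraries, on a log axis, with 1 point per library and a grey line over the range. EEF1A1 (Xelaev18004064m) was highest in every library, and ND1 and ATP6 were highest in library 1 while most of the others were highest in library 2.

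Among the 3 libraries, the RNA of library 2 was concentrated in the fewest transcripts. The 20 transcripts together held 11.3% ± 1.61 of total RPKM (SD, n = 3). The 100 highest of each library held 25.2%, 30.5% and 27.3% in libraries 1, 2 and 3, and the 1000 highest 57.3%, 64.8% and 60.1%. To reach 50% of total RPKM took 655 transcripts in library 1, 410 in library 2 and 548 in library 3. On the mean share of the 3 libraries it took 554 transcripts, 423 when the L and S copy of a gene were summed and 832 when shares were taken of recovered reads, which are not divided by length. Of the 20 highest of each library 12 were shared by all 3, and of the 100 highest 74 were shared by all 3.

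**Figure D3:**
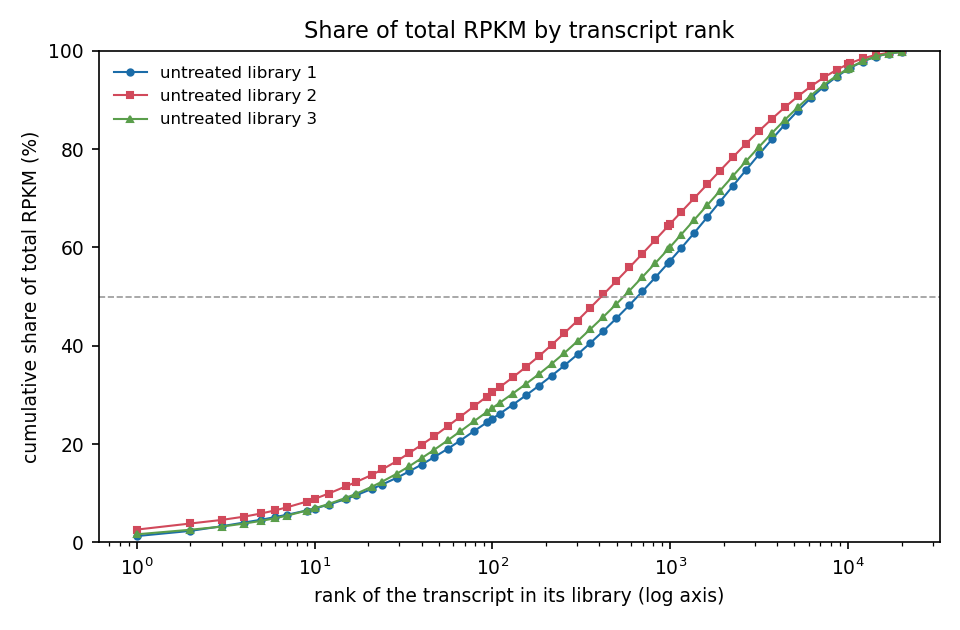
Cumulative share of total RPKM against the rank of the transcript within its library, on a log axis, for the 3 untreated libraries, with 50% drawn as a dashed line. The curve of library 2 lies highest from the top transcripts on and reaches 50% at 410 transcripts, against 655 in library 1 and 548 in library 3.

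By kind of ID, L copies held 32.4% ± 0.877 of total RPKM, S copies 25.8% ± 0.217, numbered models 38.9% ± 1.15 and other IDs 2.95% ± 0.0911 (SD, n = 3). The table lists 13527 L, 10035 S, 18856 numbered and 1235 other rows, of which 6363, 4271, 4753 and 546 had a mean of at least 1 RPKM.

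Lists of genes by function showed which machinery the RNA served. Splicing and RNA-binding genes held 7.47% ± 0.954 of total RPKM, genes of histones and chromatin 5.89% ± 0.476, translation factors 5.26% ± 1.07 and the cytoskeleton 1.93% ± 0.291 (SD, n = 3). Among cytoskeletal genes the highest were TMSB4X (Xetrov90005767m.L), which binds actin monomers, at 900, 714 and 741 RPKM, and TUBB4B (Xelaev18038180m), a beta tubulin, at 445, 547 and 736 RPKM. LMNB1 (Xelaev18007951m), a lamin of the nuclear envelope, read 556, 598 and 513 RPKM, a range of 0.22 on the log2 scale.

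Ribosomal protein genes moved together between libraries. Of 150 transcripts with a mean of at least 1 RPKM, 142 were both lowest in library 1 and highest in library 2, against 3113 of 15933 (19.5%) over all transcripts. They summed to 11880, 25465 and 17371 RPKM in libraries 1, 2 and 3, which was 2.60%, 5.23% and 3.74% of the total. RPL36A (Xelaev18038536m), of the large subunit, read 273, 486 and 347 RPKM, and RPS18 (Xelaev18039125m), of the small subunit, read 290, 479 and 351 RPKM. Among the 8 others were RPS9 (Xelaev18036189m), at 20.2, 46.9 and 55.7 RPKM, and RPL27 (Xelaev18043840m), at 173, 296 and 173 RPKM. Few of them crossed the mark for a wide range used below: RPS12 (Xelaev18000107m), rpl19.L and RPL21 (Xelaev18037282m), 3 of the 150.

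Proteasome genes held 0.504% ± 0.0297 of total RPKM and were among the steadier lists, with a median SD of 0.27 on the log2(RPKM + 1) scale against 0.42 for all 15933 transcripts. The proteasome subunit psmd13.S read 136, 143 and 149 RPKM. Nuclear genes of the respiratory chain and ATP synthase held 1.24%, 1.44% and 1.44% in libraries 1, 2 and 3. Unlike the mitochondrial genome, they were lowest in library 1 in 86 of 125 transcripts, against 5109 of 15933 over all transcripts. Chaperones held 1.25%, 1.85% and 1.90%, led by hspa8.S at 926, 1865 and 2010 RPKM.

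The lists of cell cycle and maternal genes had their highest shares in library 1. Cell cycle genes held 1.06%, 0.727% and 0.798% of total RPKM in libraries 1, 2 and 3, and 36 of 66 were highest in library 1, a share near that over all transcripts (7625 of 15933). CDC6 (Xelaev18043144m), which loads the replicative helicase, read 233, 46.1 and 40.7 RPKM. The germ plasm and maternal list held 0.295%, 0.219% and 0.270%, and its oocyte linker histone h1foo.S read 210, 39.3 and 68.2 RPKM. The replication clamp PCNA (Xelaev18018556m) read 354, 163 and 234 RPKM.

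**Figure D4:**
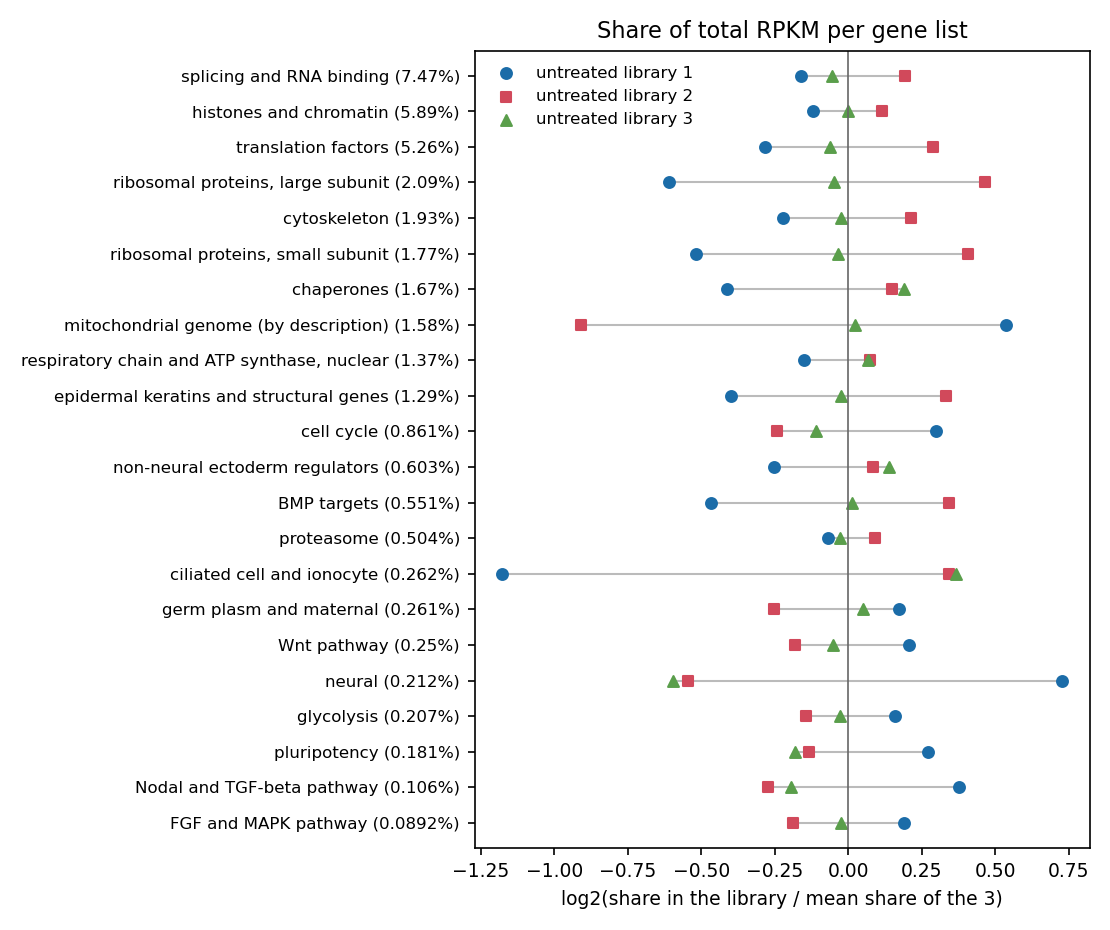
Share of total RPKM of each gene list in the 3 untreated libraries, as log2 of the share over the mean share of the 3, for the 22 lists that held at least 0.05% on average, with the mean share in brackets. Library 1 lies lowest for ribosomal proteins, BMP targets and the ciliated cell and ionocyte list and highest for neural genes and the mitochondrial genome.

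Genes of ectodermal fate often differed widely between the libraries. Epidermal keratins and structural genes held 0.978%, 1.63% and 1.27% of total RPKM in libraries 1, 2 and 3, non-neural ectoderm regulators 0.506%, 0.640% and 0.664%, and BMP targets 0.398%, 0.699% and 0.555%. The ciliated cell and ionocyte list held 0.116%, 0.332% and 0.338%, and the neural list 0.351%, 0.145% and 0.140%. Across 15933 transcripts, 1012 (6.35%) had a range of 2 or more on the log2(RPKM + 1) scale. That is 4-fold or more in RPKM + 1 between the highest and lowest library. In the ciliated cell and ionocyte list 17 of 35 transcripts did so, in the list of non-neural ectoderm regulators 16 of 44, in that of BMP targets 8 of 24, in the neural list 13 of 39 and in the epidermal list 6 of 29. Outside the ectoderm, 4 of 9 transcripts of the endoderm and organizer list did so, a2m.S, A2M, gata4.S and gata6.S. These lists were chosen with results of the same libraries known, and the counts are descriptions. Leaving out a library changed the count over all transcripts to 180 without library 1, 404 without library 2 and 825 without library 3.

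The multiciliated cell markers foxj1, mcidas, myb, ccno and tekt2 were each lowest in library 1 and highest in library 2. MCIDAS (Xelaev18010956m), multicilin, which starts the multiciliated program, read 0.256, 111 and 26.0 RPKM in libraries 1, 2 and 3. The ciliary regulator foxj1.S read 5.60, 188 and 119 RPKM, and the cyclin ccno.L, needed to multiply centrioles, read 4.74, 178 and 97.9 RPKM. The widest range of all was that of TUBA1A (Xelaev18044483m), at 1.22, 695 and 158 RPKM, a range of 8.29. TUBA1A encodes an alpha tubulin, and several models carry this symbol, so how reads were divided among them is uncertain.

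Keratin 12, a keratin of the surface layer of the larval skin, also had its lowest level in library 1. The gene krt12.S read 56.2, 1773 and 829 RPKM, and the models KRT12 (LOC549413.L) and KRT12 (LOC549413.S) had ranges of 7.07 and 6.60, with 2.66, 493 and 210 RPKM for LOC549413.L. The 10 transcripts of at least 20 RPKM with the widest ranges were 4 TUBA1A models, these 2 KRT12 models, 2 MCIDAS models, TBC1D24 (LOC100493941-like.L), at 0.324, 164 and 49.9 RPKM, and S100A10 (Xelaev18042944m), at 0.0713, 61.4 and 20.2 RPKM. The 4 TUBA1A models were Xelaev18044483m, LOC100497528.L, LOC100490289-like.L and Xelaev18047022m. All were lowest in library 1 and highest in library 2.

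Not all skin genes followed that order. The ionocyte regulator foxi1.L read 255, 68.9 and 346 RPKM in libraries 1, 2 and 3, and foxi1.S read 48.5, 64.2 and 199 RPKM, so that both were highest in library 3. The proton pump subunit ATP6V1A (Xelaev18040968m) kept the order, lowest in library 1 and highest in library 2, at 39.0, 185 and 181 RPKM. In contrast grhl3.L, a grainyhead factor of the epidermal barrier, read 275, 244 and 317 RPKM, a range of 0.37.

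BMP targets were lowest in library 1 in 20 of 24 transcripts of the list, against 5109 of 15933 over all transcripts. The feedback antagonist szl.L read 36.7, 377 and 230 RPKM, the pseudoreceptor bambi.L read 124, 352 and 249 RPKM, and the homeobox gene msx1.S read 7.38, 118 and 80.4 RPKM. ID3 (Xelaev18015089m), an inhibitor of basic helix-loop-helix factors, was highest in library 1, at 492, 375 and 355 RPKM. Another model, ID3 (Xelaev18012086m), read 233, 238 and 203 RPKM. In these transcripts the multiciliated markers given above (28.0, 893 and 450 RPKM) ran in the same order as szl.L, bambi.L and msx1.S, and their part in the differences was not tested.

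Neural genes were highest in library 1 in 24 of 39 transcripts, against 7625 of 15933 over all transcripts. SOX3 (Xelaev18042169m), a factor of neural progenitors, read 278, 33.9 and 61.5 RPKM, and gmnn.S, which encodes geminin, read 347, 47.7 and 46.1 RPKM. The homeobox gene otx1.L read 57.6, 9.56 and 12.0 RPKM. The 4 HES5 models with a range of 2 or more, targets of Notch signalling, had the other order, for example 1.35, 25.7 and 13.9 RPKM for HES5 (Xelaev18037603m). SOX15 (Xelaev18019577m) was the highest of the list, at 282, 278 and 181 RPKM.

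The other lists held smaller shares. Pluripotency genes held 0.219%, 0.165% and 0.160% of total RPKM in libraries 1, 2 and 3, led by KLF4 (Xelaev18023103m), a factor shared by stem cells and epidermis, at 238, 104 and 172 RPKM. Genes of glycolysis held 0.231%, 0.187% and 0.203%, led by LDHB (Xelaev18019895m), a lactate dehydrogenase subunit, at 222, 241 and 160 RPKM. Of the mesoderm list 3 of 41 transcripts reached a mean of 1 RPKM, TBX6 (Xelaev18010507m), TBX6 (Xelaev18007613m) and cdx2.L, and of the endoderm and organizer list 9 of 68 did. Blood and muscle genes reached it in 0 of 44 transcripts.

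The signalling pathways that the study perturbed in other caps were measured here at their untreated level. The Wnt list held 0.289%, 0.221% and 0.241% of total RPKM in libraries 1, 2 and 3, the FGF and MAPK list 0.0892% ± 0.0117 and the Nodal and TGF-beta list 0.106% ± 0.0275 (SD, n = 3). Beta-catenin was the highest of the Wnt list, with CTNNB1 (Xelaev18033202m) at 481, 322 and 409 RPKM, while the receptor FZD7 (Xelaev18044942m) read 109, 17.8 and 28.4 RPKM. The FGF receptor copy fgfr4.S read 84.3, 85.7 and 82.4 RPKM, a range of 0.057 on the log2 scale. The other copy, fgfr4.L, read 48.3, 25.3 and 26.3 RPKM, a range of 0.90. SMAD4 (Xelaev18011096m), the common partner in TGF-beta and BMP signalling, read 360, 140 and 129 RPKM. Another model, SMAD4 (Xelaev18008450m), read 43.7, 35.5 and 33.8 RPKM. The ligand BMP7 (Xelaev18018155m) read 216, 461 and 318 RPKM.

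Some transcripts of at least 20 RPKM hardly differed between the libraries. EXOSC8 (Xelaev18016150m), a subunit of the RNA exosome, read 48.5, 48.3 and 48.5 RPKM. The annexin anxa3.L read 101, 100.3 and 99.9 RPKM. ABCF2 (Xelaev18032592m), GMDS (Xetrov90016159m.S), an enzyme of fucose synthesis, the chromatin subunit rbbp7.S and the ubiquitin pathway gene ufd1l.S completed the 6, with ranges between 0.0198 and 0.0276.

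Most of the spread between libraries was larger than counting error. The median SD over 15928 transcripts with recovered reads was 0.42 on the log2(RPKM + 1) scale, and the median SD that counting alone gives was 0.06. By level it was 0.42 for 4447 transcripts of 1 to 3 RPKM, 0.45 for 5193 of 3 to 10 RPKM, 0.42 for 3527 of 10 to 30 RPKM, 0.35 for 1957 of 30 to 100 RPKM and 0.31 for 804 of at least 100 RPKM. Library 3 lay between the other two for 721 of the 1012 transcripts with a wide range, against 8868 of 15933 over all transcripts. The lowest was library 1 and the highest library 2 for 371 of the 1012 (36.7%), against 3113 of 15933 (19.5%) over all transcripts. The reverse held for 350 (34.6%), a share near that over all transcripts, 5755 of 15933 (36.1%).

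The 2 homeologs were compared within each library, in pairs of 1 L and 1 S ID with the same base name and a mean sum of at least 5 RPKM. That level was reached by 3385 of the 8442 pairs listed. Limma's moderated test of log2((L + 1)/(S + 1)) over the 3 libraries called 2364 pairs (69.8%) at an adjusted p under 0.05, with L higher in 1414 (41.8%) and S higher in 950 (28.1%). The median log2 ratio was 0.28, 0.29 and 0.24 in libraries 1, 2 and 3, and an exact sign test over 3 libraries could not go below 0.25. How the authors divided reads between similar copies is not given in the sources used here, so differences between copies of 1 gene are uncertain.

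In 234 of the 3385 pairs a copy had no read in any of the 6 libraries of the full table, 78 L and 156 S copies, and 233 of these pairs were called. For 197 of the 234 the table holds a dot-1 ID of the same base name with reads, and 0 pairs in which both copies had reads have such an ID. The RNA-binding gene hnrnpab shows the case. Its L copy was listed at 0 in all 3 libraries, against 1159, 1553 and 1232 RPKM for the S copy, and hnrnpab.1 read 1255, 1724 and 1355 RPKM. In the tables of the fourth untreated library, which list only the L and S IDs of hnrnpab, the L copy read 1266 RPKM and the S copy 1112 RPKM. Of the 234 copies 174 are listed in the fourth library, each with a dot-1 ID in the full table, and 171 of them read at least 1 RPKM there. The ratios of these pairs are therefore given apart, and the values below are for pairs with reads in both copies, a set chosen after the values were seen.

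Of the 3151 pairs with reads in both copies 2131 (67.6%) were called, with L higher in 1258 (39.9%) and S higher in 873 (27.7%). The summed RPKM was nearly even between the copies, with 51.7% ± 0.0551 from L (SD, n = 3). The median log2 ratio was 0.22, the median size of the log2 ratio in either direction 1.08, and the middle 50% of pairs lay between -0.78 and 1.35. With 1 RPKM added to each copy, a ratio of 2-fold or more was found in 1000 pairs toward L and 646 toward S. A ratio of 16-fold or more was found in 68 toward L and 49 toward S. Only 176 pairs lay within 0.1 of an even level.

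RPKM divides by the length of the gene model, and lengths of the copies often differed. Among 806 pairs whose recovered lengths lay within 10% of each other, 506 were called, with L higher in 291 and S higher in 215, and their median log2 ratio was 0.12. Without a minimum level the median over 7787 pairs was 0.02.

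**Figure D5:**
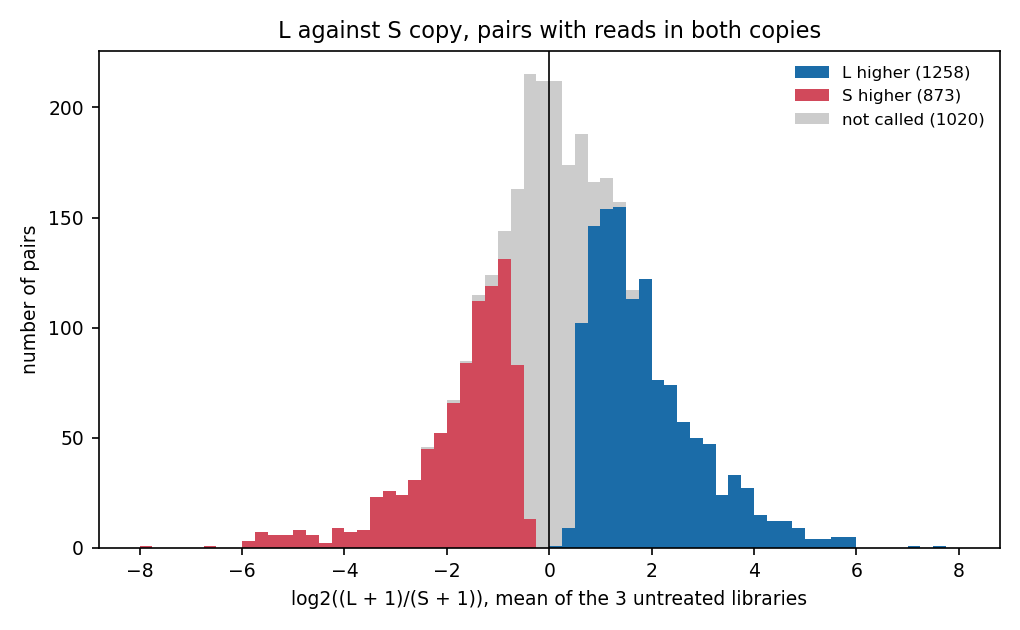
Number of pairs by log2((L + 1)/(S + 1)) averaged over the 3 untreated libraries, for 3151 pairs with reads in both copies, stacked by call (L higher, S higher, not called at an adjusted p under 0.05). The called pairs were 1258 with L higher and 873 with S higher, and the distribution reaches beyond 7 on the L side and -7 on the S side.

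Most ratios had the same direction in other libraries. Of 1701 called pairs with both copies listed in the fourth untreated library 1679 (98.7%) had the same direction there, and in the 3 dissociated libraries 2024 of the 2131 (95.0%) had the same direction in every library. RPKM divides by model length in all of them, so a call that rests on length can repeat its direction. The dissociated caps also belong to the same experiments as libraries 1 to 3. Pairs not called were not counted in this way, so these shares are descriptions. The 4 called pairs that differed by 1 or more in the opposite direction in the fourth library were ankrd45-like, efs, ndfip1 and ppp1r21-like. For efs, an adaptor of Src signalling, L read 7.43, 28.0 and 17.1 RPKM against 31.4, 34.3 and 30.3 RPKM for S, while in the fourth library L read 17.8 RPKM and S 3.22 RPKM.

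Among the most abundant pairs called with L higher, ratios were moderate. For srsf2, L read 1910, 2174 and 2036 RPKM and S read 1146, 1076 and 1254 RPKM (log2 ratio 0.82 ± 0.0902 SE, adjusted p = 0.000668). For the histone variant gene h2afz, L read 1457, 1825 and 1565 RPKM and S read 689, 867 and 821 RPKM (1.03 ± 0.0794, adjusted p = 0.000201). In both genes every L value lay above every S value, which describes pairs that were named because they were called.

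For hnrnpa1, L read 1416, 3157 and 1712 RPKM and S read 561, 1010 and 679 RPKM (1.44 ± 0.0954, adjusted p = 0.000124), with model lengths of 1077 and 3707 bases. In reads S was higher, at 59772, 144261 and 117016 against 43815, 130993 and 85794 for L, so this call rests on the division by length. For SLC25A5 (MGC75700), L read 1220, 1875 and 1759 RPKM and S read 190, 160 and 240 RPKM, the strongest bias of the abundant pairs toward L (3.03 ± 0.181, adjusted p = 9.15e-05). Its model lengths were 1336 and 2620 bases, so part of this ratio comes from the division by length. In reads L was also higher, at 46831, 96516 and 109304 against 14270, 16153 and 29258 for S. For odc1, the first enzyme of polyamine synthesis, L read 1106, 1196 and 1526 RPKM and S read 910, 378 and 469 RPKM (1.21 ± 0.291, adjusted p = 0.0123), and the copies were closest in library 1.

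The other 3 abundant pairs with L higher were near even. The log2 ratio was 0.28 for cirbp (adjusted p = 0.0126), 0.23 for hmgn2 (adjusted p = 0.0414) and 0.44 for HMGN1 (Xetrov90004011m, adjusted p = 0.00342). For hmgn2 the model lengths were 1023 and 306 bases and the ratio in the fourth library was -0.44. For HMGN1 the lengths were 1659 and 2487 bases, and S had more reads than L in every library. These 3 calls were lost when L and S were fitted as unpaired groups (adjusted p = 0.436 for cirbp, 0.458 for hmgn2 and 0.140 for HMGN1). All 3 were also lost when the spread was not modelled on mean level (0.208, 0.297 and 0.0731 in the same order) and with no minimum level (0.334, 0.414 and 0.12). Without library 3 the calls of cirbp and hmgn2 were lost, and without library 1 that of hmgn2. The call of hmgn2 was further lost with 0.1 or 5 RPKM added in place of 1, and with a pair minimum of 20 RPKM.

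Abundant pairs called with S higher included keratin and chaperone genes. For krt, L read 39.3, 326 and 199 RPKM against 1712, 3237 and 2571 RPKM for S (-4.13 ± 0.398, adjusted p = 0.000412). For the chaperone hsp90ab1, L read 271, 330 and 367 RPKM against 795, 1617 and 1391 RPKM for S (-1.92 ± 0.155, adjusted p = 0.000233). For anp32c, L read 987, 905 and 875 RPKM against 1995, 3093 and 2401 RPKM for S (-1.41 ± 0.148, adjusted p = 0.000558). The copies of these 3 genes did not overlap in level, but the pairs were named because they were called. How often the copies of a pair do not overlap was not counted over all pairs.

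For the poly(A)-binding protein gene pabpc1, L read 221, 252 and 267 RPKM against 701, 1076 and 906 RPKM for S (-1.84 ± 0.122, adjusted p = 0.000124). The remaining 4 were closer to even, with log2 ratios of -0.35 for the chaperone hspa8 (adjusted p = 0.0108), -0.30 for hmgb3 (adjusted p = 0.0306), -0.44 for the RNA helicase ddx5 (adjusted p = 0.0161) and -0.41 for the spliceosome gene snrpb (adjusted p = 0.00857). The lengths of the L and S models were 3526 and 492 bases for hmgb3 and 1339 and 946 bases for snrpb. In both genes L had more reads than S in every library, so these S calls rest on the division by length. These 4 calls were also lost with unpaired groups (adjusted p = 0.454 for hspa8, 0.195 for hmgb3, 0.0787 for ddx5 and 0.0860 for snrpb). All 4 were lost without library 3, when the spread was not modelled on mean level and with no minimum level, and hmgb3 also without library 2.

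In 11 of the 12 pairs with the largest ratios the lower copy stayed under 2 RPKM in every library, and in krt12 it did not. For nudt21, a factor of mRNA 3' end processing, L read 222, 183 and 177 RPKM against 0.322, 0.360 and 0.365 RPKM for S, which were 6, 9 and 11 reads (7.17 ± 0.184, adjusted p = 1.68e-05). For sf1, a splicing factor of the branch point, L read 0.648, 0 and 0.0457 RPKM against 230, 286 and 282 RPKM for S (-7.79 ± 0.261, adjusted p = 2.46e-05). For SF3A1 (LOC734097-like), another splicing factor, L read 204, 260 and 257 RPKM against 0.164, 0.0888 and 0.129 RPKM for S (7.73 ± 0.189, adjusted p = 1.46e-05). The size of such ratios depends on the pseudocount: with 0.1 in place of 1 the log2 ratio was 8.75 for nudt21, -10.22 for sf1 and 10.05 for SF3A1 (LOC734097-like), and with 5 it was 5.21, -5.69 and 5.57 for the same genes.

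For cdh1, the epithelial cadherin, L read 0.317, 0.0473 and 0.0587 RPKM against 65.0, 184 and 112 RPKM for S (-6.62 ± 0.361, adjusted p = 7.08e-05). For krt12, L read 0.139, 37.3 and 11.4 RPKM against 56.2, 1773 and 829 RPKM for S (-5.75 ± 0.176, adjusted p = 2.25e-05). With the pseudocount of 1 the ratio of krt12 was -5.65, -5.53 and -6.07 in libraries 1, 2 and 3. Both copies were more than 10-fold higher in library 2 than in library 1. In library 1 the L copy had 6 reads and a level below the pseudocount, which limits the size of the ratio there. The 3 ratios therefore do not show that the balance of the copies stayed the same. The others among the 12 were anxa4, c20orf27, g0s2 and arpc5l with L higher, at log2 ratios of 5.82 to 5.98, and crnkl1, cwc22-like and hnrnpul1 with S higher, at -5.72 to -5.99.

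Some abundant pairs were even. For api5, an inhibitor of apoptosis, L read 204, 198 and 221 RPKM and S read 196, 208 and 204 RPKM (log2 ratio 0.03 ± 0.119, adjusted p = 0.811). For magoh, of the exon junction complex, L read 211, 205 and 232 RPKM and S read 253, 205 and 206 RPKM (-0.03 ± 0.136, adjusted p = 0.859). The pairs gng5, tceb2 and ywhaq also lay within 0.1 of even. In all 5 the copies overlapped in level, which goes with the choice of pairs within 0.1 of even. A test that misses the threshold does not show that the copies are equal.

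By function, the lists chosen with earlier results known are described by their counts. Over all 3151 pairs 67.6% were called, 39.9% with L higher and 27.7% with S higher. A list near these shares shows no balance of its own. All 14 pairs of the cytoskeleton list were called, 7 with L higher and 7 with S higher. The median size of their log2 ratio in either direction was 2.01, against 1.08 over all 3151 pairs. Examples were stmn1, which destabilises microtubules (log2 ratio 2.56), and vim, the intermediate filament vimentin (1.46), with L higher, and the myosin light chain gene myl12b (-3.63) with S higher. Of 44 pairs of the respiratory chain 18 had L and 12 had S higher, so that 68.2% were called.

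Of 14 chaperone pairs, cct8 (2.30) and tcp1 (2.07), subunits of the chaperonin, had L higher and 7 had S higher, among them hspa5 (-1.87), the chaperone of the endoplasmic reticulum. The 30 pairs of ribosomal proteins had 12 with L higher and 11 with S higher. Of 21 proteasome pairs 9 had L higher, and S was higher in 4. Of 21 pairs of translation factors L was higher in 9 and S in 6, for example eif5a (4.41) toward L and eif3k (-1.99) toward S. Splicing and RNA-binding genes had 5 of 14 pairs with L higher and 7 with S higher, the S side including snrpg (-5.48), a core protein of small nuclear RNPs. The share called was 64.3% for chaperones, 61.9% for the proteasome, 71.4% for translation factors and 85.7% for splicing and RNA binding. It was 83.3% for the small and 72.2% for the large ribosomal subunit.

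Cell cycle pairs had L higher in 8 of 17 and S in 4, with the helicase subunit genes mcm2 (3.78), mcm5 (3.58) and mcm4 (1.48) all higher in L. Among 10 pairs of histone and chromatin genes L was higher in 5 and S for hmgb3 alone, among 9 FGF and MAPK pairs L in 5 and S for fgfr4 (-1.37) and fos (-1.02). Among glycolysis pairs hk1, a hexokinase, had L higher (2.29) and tpi1, triosephosphate isomerase, had S higher (-0.87). Germ plasm and maternal genes had L higher for aurka (1.28) and cdc25c (2.55) and S higher in 4 of 7, including the oocyte gene zar1 (-3.33). In the neural list L was higher for lhx5 (0.52), sox11 (1.53), tubb2b (3.73), otx1 (3.23) and irx2 (0.74), and S for gmnn (-2.13) and zic1 (-1.28). The share called was 70.6% for the cell cycle, 60% for histones and chromatin and 77.8% for FGF and MAPK. It was 85.7% for germ plasm and maternal genes and 63.6% for the neural list.

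Pairs of ectodermal genes went both ways. Of 11 pairs of the epidermal list L was higher for krt8 (1.42), krt18 (2.14), cldn4 (1.12) and jup (1.43), and S for epcam (-1.34), krt12 and cdh1. Of 8 pairs of BMP targets L was higher for bambi (0.76) and szl (1.12), and S for id2 (-0.92) and the ligand bmp4 (-1.30). Of 8 pairs of the ciliated cell and ionocyte list L was higher for ccno (0.84), foxn4 (0.96) and plk4 (2.94), and S for foxj1 (-0.89) and e2f4 (-0.86). The share called was 63.6% for the epidermal list, 50% for BMP targets and 62.5% for the ciliated cell and ionocyte list. In the non-neural ectoderm list hes1 had L higher (1.31), and dlx3 (-1.27) and dlx6 (-2.93) had S higher.

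Receptors and transducers of the signals studied in the caps were also split. Of 9 pairs of the Nodal and TGF-beta list L was higher for smad1 (1.05), acvr1b (1.33), foxh1 (3.18) and smad9 (0.98). In that list S was higher for acvr1 (-1.38), smad2 (-0.57), acvr2b (-2.09) and tgfbr1 (-1.35). In the Wnt list L was higher for fzd6 (1.35) and lef1 (2.07), and S for sfrp2 (-1.59), fzd8 (-1.30), gsk3b (-1.82), fzd3 (-0.91) and axin1 (-1.46). The share called was 88.9% for the Nodal and TGF-beta list and 70% for the Wnt list.

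The changes of the 2 copies of a gene between libraries were partly shared. Over 2752 pairs with both copies at a mean of at least 1 RPKM, the change of L correlated with the change of S at 0.61 between libraries 1 and 2, 0.53 between 1 and 3 and 0.49 between 2 and 3. The median SD of the log2 ratio over the 3 libraries was 0.35 in these pairs, against 0.39 for the levels. The copies share libraries, and reads may be shared between them, so these are descriptions. Of 235 such pairs in which a copy had a range of 2 or more, 152 had the same lowest and the same highest library in both copies. The same share over all 2752 pairs is not given here. Among the 1012 transcripts with a wide range, 2 orders of the libraries held 36.7% and 34.6%, so the count of 152 is only a description.

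In 15 of the 3151 pairs with reads in both copies, the copy that was higher by 2-fold or more was L in 1 library and S in another. For pkp3, the desmosome protein plakophilin 3, L read 42.8, 11.6 and 17.7 RPKM and S read 5.17, 48.1 and 45.0 RPKM. For the Wnt receptor fzd10, L read 3.57, 5.47 and 3.96 RPKM and S read 1.18, 20.3 and 9.55 RPKM. Library 1 was the one with L higher in both genes, but most of the 15 pairs had S higher by 2-fold or more there. Neither pkp3 nor fzd10 was called (adjusted p = 0.899 for pkp3 and 0.370 for fzd10).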

How the data were processed

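The RNA of Xenopus laevis caps was read after poly(A) selection as single 100-bp reads of TruSeq libraries, per the labels' protocols. The authors deposited RPKM values, and the file headers name JGI9.1 as the genome. The submitters' processing notes name TopHat2 2.09 and DESeq, without their roles. The counting rule and annotation are not given in the sources used here. The fourth untreated library stands only in tables that the authors had cut at a mean of 1 RPKM, so only ratios inside that library were used. No sequence or coordinate is given, since no genome of this build was used.

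RPKM are whole reads over length and depth. A single length per transcript made the values of 30540 of 30540 transcripts with at least 3 values above 0 whole to within 0.01 reads (100%). Recovered reads served for depth, counting error and lengths. A value of 0 in a table without counts says only that the transcript is listed at 0.

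Spread was measured on log2(RPKM + 1) for transcripts with a mean of at least 1 RPKM. L and S copies were compared with limma 3.58.1 in R 4.3.3, as a moderated one-sample test of the difference inside each library, with the spread modelled on mean level (trend) and p-values adjusted by Benjamini and Hochberg's method over all 3385 pairs with a mean sum of at least 5 RPKM. The library number pairs L with S by construction, since both are read in 1 library. A fold change understates the change of low genes on this scale. An ID was shared with another row in 12 rows, and 3 pairs were left out for this. The script was tested on simulated data with equal model lengths and no reads shared between copies. That test checks the working of the script, not the effect of lengths or shared reads on the calls made here.

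Named are the 20 transcripts with the highest mean, the 8 called pairs with the highest sum and the 6 with the largest ratio in each direction, the 5 most abundant pairs within 0.1 of even, the 10 widest and 6 narrowest ranges at 20 RPKM or more, up to 4 members per list, and items of counts of 5 or fewer. Some pairs of the glycolysis and non-neural ectoderm lists are not reported here. The rule for pairs was applied to those with reads in both copies, and further list members and the 2 pairs that changed sides were chosen after their values were seen. The rule, the 24 lists and the markers were chosen with earlier results of these data known. Python 3.11.15, numpy 2.4.6 and pandas 2.3.3 were used.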

Additional observations from a re-analysis of the deposited data

Results flagged for a closer look

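In 10 of 34 named pairs with a ratio in all 4 untreated libraries, the log2((L + 1)/(S + 1)) of the fourth library lay far from the other 3. The mark was Dixon's 95% criterion for a single distant value, which chance meets in about 1 of 20 groups. The named pairs were picked by their values in libraries 1 to 3, so that rate does not apply to them. The count of 10 is a description. Of these 10, 9 are pairs with a copy that had no read in the full table and a dot-1 ID there. In the fourth library the ratio was 0.4046 for alyref, 1.885 for mcm7, 0.2742 for grhl3 and 3.207 for srrt, against 7.37 or more in libraries 1 to 3. It was 0.1863 for hnrnpab, 0.6215 for PABPC4 (Xetrov90014636m), 1.186 for hnrnpa0, -0.2503 for ddx21 and 0.2251 for arf4, against -7.13 or less in libraries 1 to 3. The tenth pair, SF3A1 (LOC734097-like), had reads in both copies and a ratio of 4.491 in the fourth library, against 7.46, 7.90 and 7.83, with S at 9.49 RPKM there and at most 0.164 RPKM in the others.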

How the results depend on the processing

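The 2364 called pairs became between 1937 and 2299 when a library was left out (L higher in 1179 to 1364, S higher in 758 to 935), and 1921 (1176 with L higher) with L and S as unpaired groups and no replicate block. A pair minimum of 20 RPKM left 1230 calls (718 L, 512 S) and lengths within 10% left 506 (291 L, 215 S), both with fewer pairs tested. The median log2 ratio of 0.2632 was 0.2977 and 0.1874 at pseudocounts of 0.1 and 5, 0.02095 with no minimum, 0.2189 at 20 RPKM, 0.1165 for lengths within 10%, 0.2162 with reads in both copies, 0.1323 with both copies at 1 RPKM, and 0.253 to 0.2967 without a library. The sets by length, by reads in both copies and by both copies at 1 RPKM were added after seeing the data. The number of transcripts for 50% of RPKM was 554, 832 for recovered reads, and 482 to 621 without a library. The median SD of 0.4159 was 0.2515 at a pseudocount of 5 and 0.1944 with no minimum, and ran from 0.2655 to 0.4671 without a library. The count of wide ranges was 2232 and 280 at pseudocounts of 0.1 and 5, and 180 to 825 without a library. Of 503 values of 44 named pairs under these alternatives, 35 were no longer called, in 8 pairs near even or variable, 464 kept direction and call, and 4 changed sign, all in pairs not called and all with a library left out, where the log2 ratio ran from -0.2257 to 0.05268 for gng5, -0.1305 to 0.08658 for magoh, -0.006121 to 0.08682 for api5 and -0.2055 to 0.2631 for ywhaq. Depth limits low copies, of which a few reads stand behind a value.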
